A study of Homo sapiens with 9 samples.

Results

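The 46 genes described here encode proteins that repair DNA or signal that it is damaged. They were taken by name from 8 branches of the damage response: 10 Fanconi anaemia genes, 11 homologous recombination genes, 3 mismatch repair genes, 7 nucleotide excision repair genes, 4 end joining genes, 2 single-strand break genes, 2 translesion polymerase genes and 7 damage signalling genes. Each name matched 1 Ensembl gene among the 62257 rows of the deposited tables. Of the 46, 45 passed a filter on low counts and were tested, and 1, MDC1, was listed at 0 in every library. Their RNA was sequenced in A549, an epithelial cell line long established from a human lung adenocarcinoma, after 96 h of treatment, in 3 groups of 3 libraries each. The ddp group received apoEVs, vesicles released by apoptotic cells, that were made with the DNA-crosslinking platinum drug cisplatin as the death stimulus. The sts group received apoEVs made with staurosporine, which inhibits many protein kinases. The control group received phosphate-buffered saline. The source cells of the vesicles and their dose are not given in the labels, and cells exposed to either drug itself were not analysed here. The labels do not tie replicates to separate cultures, so the tests rest on the spread between libraries, which may be technical.

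The pathways work on different lesions. Fanconi proteins recognise and unhook crosslinks between the DNA strands and hand the resulting breaks to homologous recombination, which copies the sister chromatid and is therefore used mainly in S and G2 phase. End joining seals breaks at any phase. Nucleotide excision repair cuts out bulky adducts, mismatch repair corrects replication errors, and translesion polymerases copy past damaged bases. The kinases ATM and ATR signal breaks and stalled forks to the checkpoint kinases CHEK2 and CHEK1. Many genes of recombination and crosslink repair are transcribed together with the DNA replication genes under E2F factors, and DDB2, XPC and POLH are known targets of p53.

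The total count per library was 15949255 to 16526399 in ddp, 13799950 to 14816996 in sts and 14356195 to 15492993 in control. The 46 genes together took 0.411% to 0.419% of the counts in ddp, 0.293% to 0.310% in sts and 0.379% to 0.397% in control, so the 3 groups did not overlap. Single tested genes held between 31 counts (FANCE) and 11156 counts (XRCC5) in a library. Levels are given as CPM, each count scaled to a common library size. The 12 markers of A549 and its epithelial lineage summed to 26470 to 28520 CPM in ddp, 34050 to 35000 CPM in sts and 36290 to 37930 CPM in control, with 1 of the 12, SFTPB, under 1 CPM in every library. The 11 immune and blood markers summed to 14.1 to 15.55 CPM in ddp, 20.47 to 25.71 CPM in sts and 11.04 to 17 CPM in control, and 9 of them were under 1 CPM in every library, with MS4A1 at 0. The fibroblast markers stayed at or below 7.90 CPM and the endothelial markers at or below 4.52 CPM in sum. Sts libraries had the highest sums of all 3 non-epithelial lists, and the part of this in the results below was not tested. In bulk RNA, a smaller number of cells in 1 state and less RNA in each cell cannot be told apart.

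Sts vesicles were accompanied by lower levels of most repair genes. With sts against control, 28 of the 45 tested genes fell and 1, XPC, rose (edgeR quasi-likelihood test with Benjamini-Hochberg adjustment over 16947 genes, adjusted p under 0.05). Over all genes tested, 16.8% fell and 15.9% rose (32.8% in all). All 3 sts libraries lay below all 3 control libraries for 32 of the 45 genes (21.7% of all genes) and above them for 1 (21.6%). The median log2 fold change of the 45 was −0.28, beside 0.01 over all genes, and 41 of the 45 values were negative. Ddp vesicles went with few and small changes. With ddp against control, 7 genes rose (FANCG, RAD51C, XRCC2, EXO1, MSH6, ERCC1 and XRCC6) and 1, ATM, fell, while 7.16% of all genes rose and 8.32% fell (15.5% in all). All 3 ddp libraries lay above all 3 control libraries for 19 of the 45 genes (15.8% of all genes) and below them for 2 (16.4%). The median of the 45 was 0.13, beside −0.003 over all genes, and 35 of the 45 values were positive. The ddp calls depended on single libraries: of the 8 called genes, 3 were still called without ddp replicate 1 (where PRKDC was added), 5 without ddp replicate 2, 5 without ddp replicate 3, 4 without control replicate 2 and 4 without control replicate 3. MSH6, EXO1 and RAD51C were called in each of the 9 fits that left out a library. Of the 28 falls with sts, 20 were called in each of these 9 fits and 8 were lost in some of them. Both comparisons use the same control libraries. With sts set directly against ddp, 34 of the 45 genes were lower and 1, XPC, was higher, while 19.5% of all genes were lower and 20.2% higher (39.7% in all). All 3 sts libraries lay below all 3 ddp libraries for 36 of the 45 genes (23.2% of all genes) and above them for 1 (24.3%). The median of the 45 in that comparison was −0.42, beside 0.03 over all genes.

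Promoter stretches of 6 members are shown as examples of starts with short E2F-type letters, 5 from genes that fell with sts and 1 from a gene that did not pass the test. Each stretch runs from 110 bases before to 20 bases after a RefSeq start (GRCh38.p14), on the strand of the gene. Capitals mark exact matches, on either strand, to TTTCCCGC, TTTCGCGC, TTTGCCGC, TTTGGCGC or TTCCCGCC, of which the first and the last overlap where TTTCCCGCC occurs.

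FANCD2, chr3:10026327-10026456, plus strand: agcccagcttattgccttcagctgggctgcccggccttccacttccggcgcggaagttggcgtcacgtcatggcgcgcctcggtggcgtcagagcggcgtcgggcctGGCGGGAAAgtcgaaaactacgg
MSH6, chr2:47783035-47783164, plus strand: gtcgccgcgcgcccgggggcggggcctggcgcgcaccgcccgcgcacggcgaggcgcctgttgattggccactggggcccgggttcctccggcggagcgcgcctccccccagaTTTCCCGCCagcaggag
EXO1, chr1:241848094-241848223, plus strand: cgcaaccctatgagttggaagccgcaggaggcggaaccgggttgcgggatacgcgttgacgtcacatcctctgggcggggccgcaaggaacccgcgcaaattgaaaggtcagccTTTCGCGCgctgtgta
BLM, chr15:90717236-90717365, plus strand: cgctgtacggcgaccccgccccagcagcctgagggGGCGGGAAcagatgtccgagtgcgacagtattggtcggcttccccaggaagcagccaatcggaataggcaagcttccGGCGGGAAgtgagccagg
RAD51AP1, chr12:4538780-4538909, plus strand: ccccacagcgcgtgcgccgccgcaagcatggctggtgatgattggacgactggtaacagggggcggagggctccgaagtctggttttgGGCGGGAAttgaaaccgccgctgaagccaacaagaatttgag
MSH3, chr5:80654542-80654671, plus strand: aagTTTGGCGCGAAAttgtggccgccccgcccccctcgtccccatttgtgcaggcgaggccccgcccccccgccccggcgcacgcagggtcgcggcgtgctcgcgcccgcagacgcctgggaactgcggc

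FANCD2, MSH6, EXO1, BLM and RAD51AP1 fell with sts and MSH3, whose stretch also holds a match, did not pass the test. RefSeq lists 1 start each for FANCD2, BLM, RAD51AP1 and MSH3 and several for MSH6 and EXO1, of which the first upstream is shown for both. In windows of 250 bases before to 50 bases after a start, 19 of the 43 members with an entry held an E2F-type match (44.2%), against 1822 of 27305 genes (6.67%). The share was 12 of 25 (48%) among members lower with sts and 7 of 17 (41.2%) among tested members that were not. TTTGAA, the CHR element of mitotic genes, was in 7 of the 43 members (16.3%) and in 18.2% of all genes. FANCI, XRCC5 and PRKDC had no entry. These matches describe letters in a window and do not show binding.

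**Figure D1:**
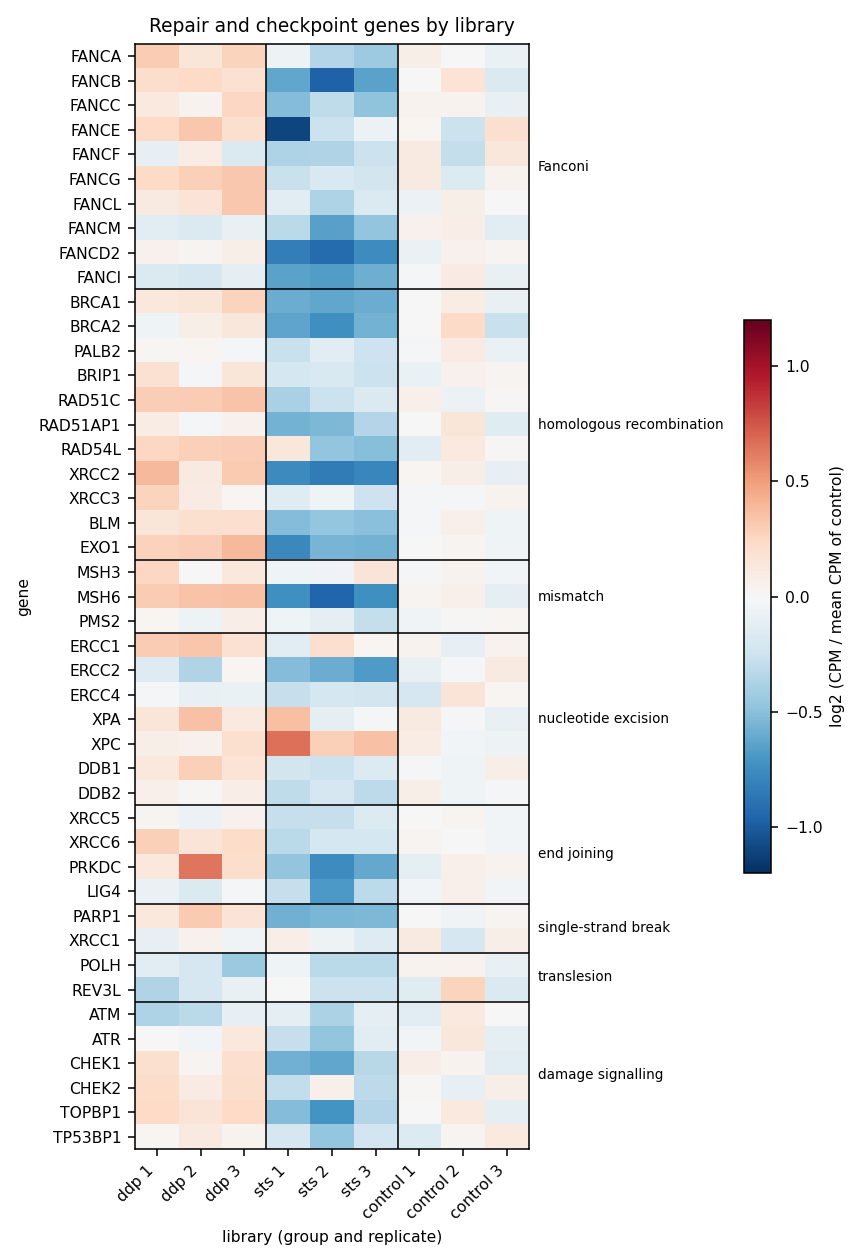
Level of each of the 45 tested genes in each library, as the log2 ratio of its CPM to the gene's mean CPM over the 3 control libraries, with columns for the ddp, sts and control libraries and rows grouped by repair branch. The sts columns are below control for 41 of the 45 genes on average, and XPC stands out in the other direction.

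Levels differed widely between the genes when scaled per length. By deposited FPKM (fragments scaled by gene length and library size), the end joining genes XRCC6 and XRCC5, which encode the Ku70 and Ku80 subunits that bind broken ends, stood far above the rest. XRCC6 averaged 184 ± 8.26 FPKM in ddp, 131 ± 6.25 in sts and 157 ± 4.43 in control (SD, n = 3 each). XRCC5 averaged 125 FPKM in ddp, 104 in sts and 124 in control. The other 43 tested genes lay at or below 21.6 FPKM in every group mean, down to FANCE with 1.19 FPKM in ddp, 0.737 in sts and 0.990 in control. The highest gene of each further branch was FANCI for Fanconi, RAD51AP1 for recombination, MSH6 for mismatch repair, ERCC1 for nucleotide excision, PARP1 for single-strand breaks, POLH for translesion synthesis and TOPBP1 for signalling, and their means in control were 14.1, 16.9, 14.1, 17.1, 7.44, 3.25 and 15.6 FPKM in that order. In control, MSH6 (14.1 FPKM) and FANCI (14.1 FPKM) did not differ beyond their spread. The gene length behind the deposited FPKM exceeds the exonic length in GENCODE v29 for several genes. For FANCL it is 37977 bases against 2412 exonic bases, and for PARP1 18399 against 7169. The order of genes by FPKM depends on that length and was not recomputed on exonic length.

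**Figure D2:**
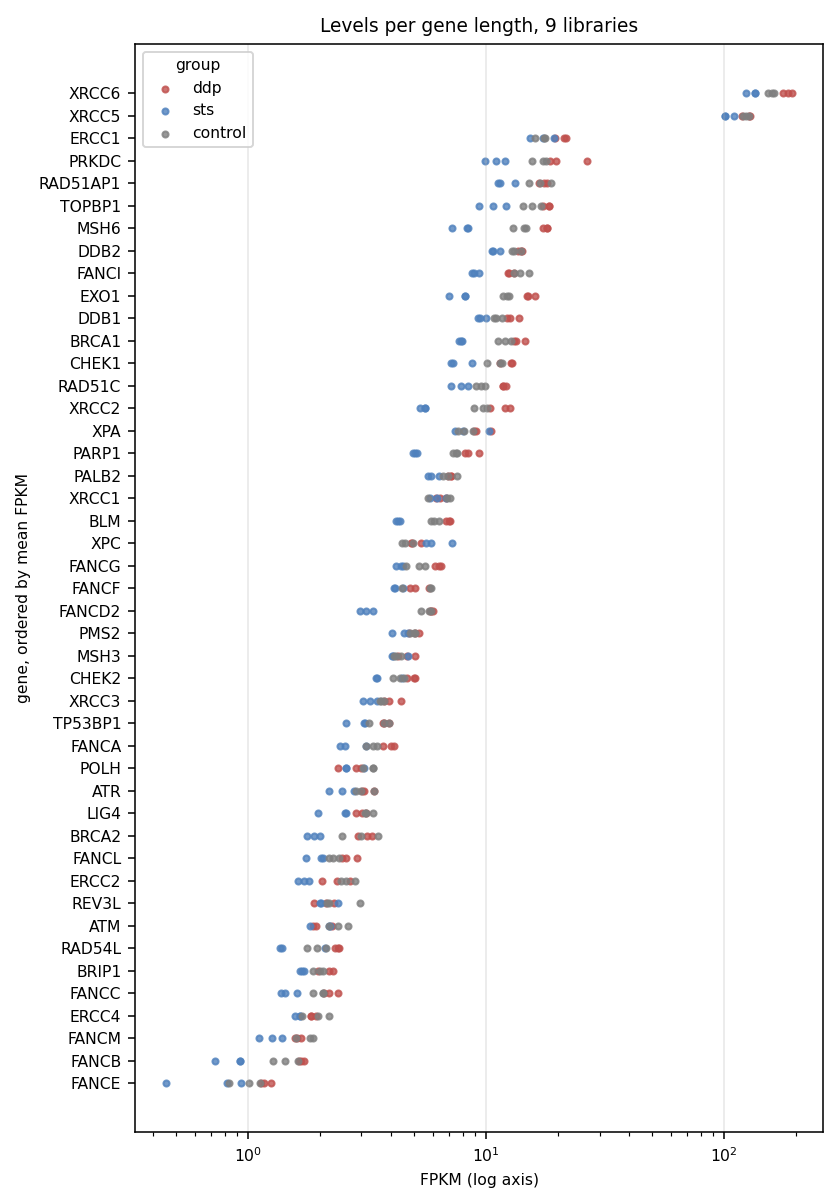
FPKM of the 45 tested genes (log axis) in each of the 9 libraries, with genes ordered by mean FPKM and points coloured by group. XRCC6 and XRCC5 lie above 100 FPKM in every library, and the remaining genes lie below them without a gap between branches.

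Among the Fanconi genes, 8 of 10 fell with sts, 1 (FANCG) rose with ddp, and 9 were lower with sts than with ddp. FANCD2 and FANCI form the pair of proteins that is ubiquitinated at a crosslink. FANCD2 (chr3:10026370-10101932, hg38) had 70.3, 69.5 and 71.3 CPM in ddp, 38.1, 35.8 and 40.3 CPM in sts, and 64.1, 70.1 and 69.2 CPM in control. All 3 sts libraries lay far below the others, and ddp overlapped control. The log2 fold change was −0.83 ± 0.08 (SE) with sts against control (adjusted p = 1.05e-09), and 0.05 ± 0.08 with ddp against control (adjusted p = 0.721). FANCI had 224, 221 and 234 CPM in ddp, 163, 159 and 169 CPM in sts, and 250.1, 272 and 239 CPM in control. Its sts libraries were the lowest (log2 fold change −0.63 ± 0.07, adjusted p = 1.76e-08), and its ddp libraries, although all below control, missed the threshold (−0.16 ± 0.07, adjusted p = 0.124).

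The remaining Fanconi genes belong mainly to the core complex that ubiquitinates this pair, with FANCL as its ligase and FANCM as the translocase that recruits it. FANCB, a core subunit, had 22.4, 22.9 and 21.98 CPM in ddp, 12.6, 9.92 and 12.5 CPM in sts, and 19.3, 21.7 and 17.2 CPM in control. Sts was lowest in every library (log2 fold change −0.73 ± 0.13, adjusted p = 2.5e-05). FANCC and FANCM also fell with sts by 0.43 and 0.48 on the log2 scale. FANCG had 34.1, 35.2 and 36.1 CPM in ddp, 23.9, 25.5 and 24.8 CPM in sts, and 31.2, 25.8 and 29.6 CPM in control. The 3 groups did not overlap. FANCG rose with ddp (0.28 ± 0.10, adjusted p = 0.0417), a call lost without any 1 of 5 libraries (adjusted p 0.0737 without ddp replicate 1, 0.0927 without ddp replicate 2, 0.117 without ddp replicate 3, 0.235 without control replicate 2 and 0.0857 without control replicate 3), and its value with sts against control was −0.22 ± 0.10 (adjusted p = 0.0834). FANCA, FANCF and FANCL fell with sts by 0.28, 0.33 and 0.22 on the log2 scale (adjusted p = 0.0257, 0.0492 and 0.0408). Each of these 3 calls was lost in some fits that left out a library. FANCA was lost without sts replicate 2, sts replicate 3 or control replicate 1 (adjusted p up to 0.136). FANCF was lost without ddp replicate 1, any sts replicate, control replicate 1 or control replicate 3 (up to 0.169). FANCL was lost without sts replicate 2, control replicate 2 or control replicate 3 (up to 0.211). Over all 21 alternative settings, the call was kept in 14 for FANCA, 5 for FANCF and 11 for FANCL. FANCF and FANCL were both lost with upper-quartile scaling, limma-voom and the replicate block. FANCF was also lost with DESeq2 and without the filter on low counts. FANCE, the lowest member, had a value of −0.41 ± 0.24 with sts (adjusted p = 0.204). On the opposite strand, FANCA shares 23.6% of its exonic bases with ZNF276 and FANCL shares 18.7% with VRK2. These partners held up to 324 and 622 counts in a library, and without a stated strand setting their reads cannot be told apart.

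All 11 homologous recombination genes had negative values with sts against control and 7 fell. All 11 had positive values with ddp, and 3 (RAD51C, XRCC2 and EXO1) rose. The ddp values of PALB2, RAD51AP1 and BRCA2 (0.006, 0.04 and 0.06) were smaller than their SE and changed sign in some alternative fits. XRCC2, which acts in the strand exchange step of recombination, had 61.3, 50.5 and 58.2 CPM in ddp, 27.6, 26.2 and 27.2 CPM in sts, and 47.6, 49.2 and 43.9 CPM in control. The 3 groups did not overlap, with ddp highest and sts lowest. The log2 fold change was −0.80 ± 0.09 with sts against control (adjusted p = 2.68e-08). It was 0.27 ± 0.09 with ddp against control (adjusted p = 0.0302), and that call was lost without ddp replicate 1 (adjusted p = 0.189), ddp replicate 3 (0.0961), control replicate 1 (0.0676) or control replicate 3 (0.167).

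EXO1, the exonuclease that resects broken ends and also acts in mismatch repair, had 61.8, 62.3 and 66.8 CPM in ddp, 29.8, 34.5 and 34.4 CPM in sts, and 51.1, 52.1 and 49.5 CPM in control. The groups again stood apart in the same order. EXO1 rose with ddp by 0.32 ± 0.08 (adjusted p = 0.00666) and fell with sts by 0.63 ± 0.09 (adjusted p = 7.12e-07). RAD51C, which acts in the same step, had 71.6, 72.0 and 74.0 CPM in ddp, 44.5, 48.8 and 51.9 CPM in sts, and 60.7, 55.6 and 58.8 CPM in control. It rose with ddp by 0.31 ± 0.08 (adjusted p = 0.00648) and fell with sts by 0.27 ± 0.08 (adjusted p = 0.011), a fall that was not called without sts replicate 1 (adjusted p = 0.0654).

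BRCA2, a tumour suppressor needed for strand exchange, had 37.3, 40.6 and 42.6 CPM in ddp, 24.9, 23.2 and 26.0 CPM in sts, and 38.5, 45.2 and 32.1 CPM in control. All 3 sts libraries were below all others (log2 fold change −0.64 ± 0.11, adjusted p = 1.32e-05), while ddp lay within the control range. BRCA1, which promotes end resection, had 123, 124 and 136 CPM in ddp, 74.6, 73.5 and 74.5 CPM in sts, and 113, 119.6 and 106 CPM in control. It fell with sts by 0.60 ± 0.08 (adjusted p = 1.62e-07), and its positive value with ddp missed the threshold (0.18 ± 0.08, adjusted p = 0.108). RAD51AP1, which stimulates strand invasion, had 46.3, 42.9 and 45.2 CPM in ddp, 29.4, 30.0 and 34.2 CPM in sts, and 43.3, 48.0 and 39.3 CPM in control, and fell with sts by 0.48 ± 0.09 (adjusted p = 0.000141). BLM, the helicase that dissolves recombination intermediates, fell with sts by 0.50 ± 0.08 (adjusted p = 1.85e-05). PALB2, the bridge between BRCA1 and BRCA2, and the helicase BRIP1 had values of −0.21 and −0.22 with sts that missed the threshold (adjusted p = 0.0794 and 0.0656). RAD54L and XRCC3 had values of −0.25 and −0.15 (adjusted p = 0.312 and 0.285). XRCC3 shares 76.7% of its exonic bases with KLC1 on the opposite strand and RAD54L shares 25.1% with LRRC41, both of which rose with sts by 0.25 (adjusted p = 0.0207 and 0.0278), and without a stated strand setting reads of such partners cannot be told apart.

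The mismatch repair genes differed from one another. MSH6, which forms the mismatch-recognition dimer MutSα, had the largest change of all 45 genes between sts and ddp. It had 188, 194 and 195 CPM in ddp, 91.8, 78.9 and 91.8 CPM in sts, and 157, 159.5 and 142 CPM in control. The 3 groups did not overlap, with ddp highest and sts lowest. MSH6 (chr2:47695530-47810063) rose with ddp by 0.33 ± 0.08 (adjusted p = 0.00195) and fell with sts by 0.81 ± 0.08 (adjusted p = 5.85e-10), which is 1.75-fold lower. MSH3, which forms the alternative dimer for larger loops, had 27.1, 22.9 and 24.8 CPM in ddp, 21.9, 22.2 and 25.3 CPM in sts, and 22.6, 23.5 and 22.3 CPM in control. All 3 groups overlapped, and the difference between sts and control was 0.02 with a 95% interval of −0.19 to 0.23. PMS2, the nicking subunit that follows recognition, had 31.6, 29.7 and 32.8 CPM in ddp, 29.9, 28.8 and 25.5 CPM in sts, and 30.1, 31.4 and 31.6 CPM in control. Its value with sts was −0.14 (95% interval −0.33 to 0.05). PMS2 is uncertain, because its pseudogenes PMS2CL and PMS2P1 held 165 to 261 and 221 to 333 counts beside 362 to 516 for PMS2 itself. MSH6 shares 16.2% of its exonic bases with FBXO11 on the opposite strand, and without a stated strand setting reads of the pair cannot be told apart.

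Nucleotide excision repair showed no common direction. With sts, 3 of its 7 genes fell and 1 rose. XPC, which finds helix distortions and opens global repair, had 22.8, 22.6 and 24.8 CPM in ddp, 34.2, 26.5 and 27.7 CPM in sts, and 23.1, 21.2 and 20.8 CPM in control. Its 3 sts libraries were above all others, with sts replicate 1 the highest. It rose with sts against control by 0.44 ± 0.11 (adjusted p = 0.00194), also in each of the 9 fits without a library, and was higher in sts than in ddp by 0.33 ± 0.11 (adjusted p = 0.0142), a call lost without sts replicate 1 (adjusted p = 0.19), ddp replicate 1 (0.0513) or ddp replicate 2 (0.0649). XPC shares 30.4% of its exonic bases with XPC-AS1 on the opposite strand, which rose with sts by 1.03 (adjusted p = 0.0056) but held at most 46 counts in a library. DDB2, which brings XPC to ultraviolet lesions and is likewise a p53 target, fell by 0.27 ± 0.08 (adjusted p = 0.0078), as did its partner DDB1 by 0.21 ± 0.07 (adjusted p = 0.0228), a call lost without sts replicate 2 (0.0667) or control replicate 3 (0.0839). ERCC2, a helicase of TFIIH, fell by 0.60 ± 0.13 (adjusted p = 0.000439).

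ERCC1, which with ERCC4 cuts on the 5′ side of a lesion and also unhooks crosslinks, had 119, 122 and 109.6 CPM in ddp, 87.6, 110.3 and 97.8 CPM in sts, and 99.6, 90.1 and 99.5 CPM in control. Ddp was above control in every library, and sts overlapped both. ERCC1 rose with ddp by 0.28 ± 0.08 (adjusted p = 0.0193), a call lost without ddp replicate 1 (adjusted p = 0.0727), ddp replicate 2 (0.0861) or control replicate 2 (0.113). It shares 28.6% of its exonic bases with POLR1G on the opposite strand, which had a log2 fold change of 0.79 with ddp and held at most 169 counts. ERCC4 had a value of −0.24 with sts (adjusted p = 0.0728), and XPA, the scaffold that checks the lesion, a value of 0.09 (95% interval −0.18 to 0.35).

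All 4 end joining genes fell with sts. PRKDC, the kinase that binds Ku at a break, had 288, 410.5 and 305 CPM in ddp, 190, 156 and 173 CPM in sts, and 244, 276 and 271 CPM in control. The sts libraries were lowest, and ddp replicate 2 stood above the other ddp libraries. PRKDC fell with sts by 0.61 ± 0.12 (adjusted p = 0.00247). Its positive value with ddp, 0.34 ± 0.12, missed the threshold (adjusted p = 0.0865) and passed it without ddp replicate 1 (adjusted p = 0.00758), without the filter on low counts (0.000636), with DESeq2 (0.011) and with limma-voom (0.0358). XRCC6 had 628, 573 and 601 CPM in ddp, 413, 446 and 446 CPM in sts, and 528, 517 and 503 CPM in control, so that the groups stood apart. It rose with ddp by 0.22 ± 0.07 (adjusted p = 0.0249) and fell with sts by 0.25 ± 0.07 (adjusted p = 0.00522). The rise was lost without ddp replicate 1 (adjusted p = 0.143), ddp replicate 3 (0.0705), or control replicate 1 (0.0526), 2 (0.0825) or 3 (0.122). XRCC5 fell with sts by 0.24 ± 0.07 (adjusted p = 0.00658), and its value with ddp was 0.003 ± 0.07. LIG4, the ligase of this pathway, fell with sts by 0.41 ± 0.12 (adjusted p = 0.006), a call lost without sts replicate 2 (adjusted p = 0.0674).

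Of the single-strand break genes, PARP1, the nick sensor that makes poly(ADP-ribose), had 151, 172 and 155 CPM in ddp, 92.9, 94.8 and 95.4 CPM in sts, and 139, 134 and 142 CPM in control. The sts libraries lay far below the others. PARP1 fell with sts by 0.55 ± 0.07 (adjusted p = 4.92e-07), and its positive value with ddp missed the threshold (0.20 ± 0.07, adjusted p = 0.0551). XRCC1, the scaffold PARP1 recruits, had a value of −0.04 with sts (95% interval −0.28 to 0.19). Neither translesion polymerase gene passed the test. POLH, which copies past ultraviolet dimers and platinum adducts, had 25.0, 23.95 and 20.1 CPM in ddp, 26.4, 21.99 and 22.03 CPM in sts, and 28.3, 28.2 and 25.9 CPM in control. REV3L, the catalytic subunit of polymerase ζ, had values of −0.21 with ddp and −0.17 with sts (adjusted p = 0.235 and 0.289).

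Among the signalling genes, 4 of the 6 tested fell with sts: CHEK1, TOPBP1, ATR and TP53BP1. TOPBP1, the activator of ATR, had 136, 128 and 136 CPM in ddp, 80.7, 70.4 and 90.5 CPM in sts, and 115, 125 and 106 CPM in control. Its groups stood apart, and it fell with sts by 0.52 ± 0.09 (adjusted p = 1.13e-05). CHEK1 fell by 0.51 ± 0.09 (adjusted p = 3.5e-05). ATR fell by 0.29 ± 0.09 (adjusted p = 0.0105), a call lost without sts replicate 2 (0.0856) or control replicate 2 (0.0704). TP53BP1, which shields breaks from resection, fell by 0.29 ± 0.09 (adjusted p = 0.0138), a call lost without sts replicate 2 (0.102) or control replicate 3 (0.0742), and shares 28.7% of its exonic bases with TUBGCP4 on the opposite strand, which also fell with sts, by 0.46 (adjusted p = 0.00828). CHEK2 had a value of −0.17 (adjusted p = 0.301). ATM had 73.6, 76.0 and 88.5 CPM in ddp, 88.1, 73.1 and 88.3 CPM in sts, and 86.4, 103 and 95.4 CPM in control. Ddp replicate 3 lay within the control range, and the fall with ddp of 0.26 ± 0.09 (adjusted p = 0.0454) was lost without ddp replicate 1 (0.212), ddp replicate 2 (0.155), sts replicate 1 (0.0554), control replicate 2 (0.219) or control replicate 3 (0.111). The ATM call was also lost with median-of-ratios scaling (0.0526), with DESeq2 (0.0651), with limma-voom (0.0682) and in all 3 FPKM fits (0.245 to 0.484). MDC1, which docks repair proteins on marked chromatin, was listed at 0 in all 9 libraries. Of 16 protein-coding genes within 200 kb of it, 14 were also listed at 0 in all libraries, among them TUBB, FLOT1 and ABCF1, which most cells use. Also among the 14 was GTF2H4, a further nucleotide excision gene that was not tested. Whether MDC1 RNA was absent cannot be told from this 0, and the reason for the zeros was not tested.

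**Figure D3:**
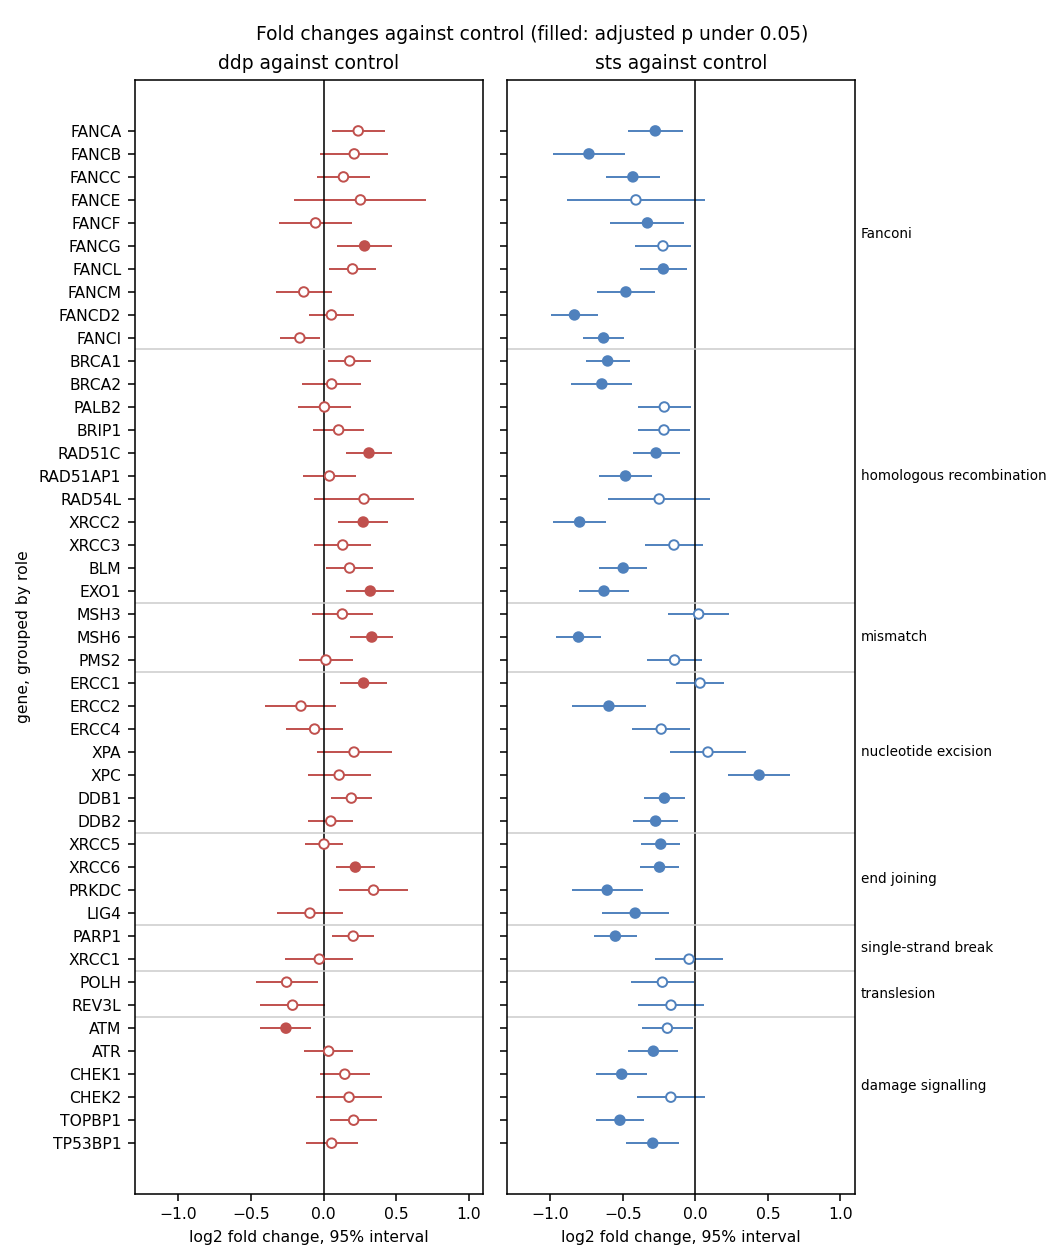
Log2 fold changes of the 45 tested genes with ddp against control (left) and sts against control (right), bars for the 95% interval, filled where the adjusted p was under 0.05, grouped by branch. The right panel has 28 filled points below 0 and 1 above it, XPC, and the left panel 7 above and 1 below.

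Set directly against each other, sts and ddp differed most for MSH6, XRCC2, PRKDC, EXO1, FANCB, FANCD2, BRCA1 and PARP1. MSH6 averaged 87.5 ± 7.43 CPM in sts and 193 ± 3.49 CPM in ddp (SD, n = 3 each), a log2 fold change of −1.14 ± 0.08 (adjusted p = 1.86e-13). XRCC2 averaged 27.0 ± 0.714 CPM in sts and 56.7 ± 5.59 CPM in ddp, a change of −1.07 ± 0.09 (adjusted p = 3.13e-11). The other 6 differed by −0.95 to −0.76. Of the 34 genes lower in sts than in ddp, 26 were called in each of the 9 fits without a library. The other 8 lost the call in some of these fits, with adjusted p of 0.0508 to 0.208. They were FANCE (without ddp 2 or sts 1), FANCM (sts 2), RAD54L (sts 2 or 3), XRCC3 (ddp 1, sts 1 or 3), ERCC1 (ddp 1 or 2, sts 1), ERCC2 (ddp 3), LIG4 (ddp 1 or 3, sts 2) and CHEK2 (ddp 1 or 3, sts 1 or 3). The 10 genes not called were PALB2, FANCF, MSH3, PMS2, ERCC4, XPA, XRCC1, POLH, REV3L and ATM. For 22 genes, sts was called lower than both other groups while ddp was not called against control. For 5 (RAD51C, XRCC2, EXO1, MSH6 and XRCC6) ddp was higher than control and sts lower than both.

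**Figure D4:**
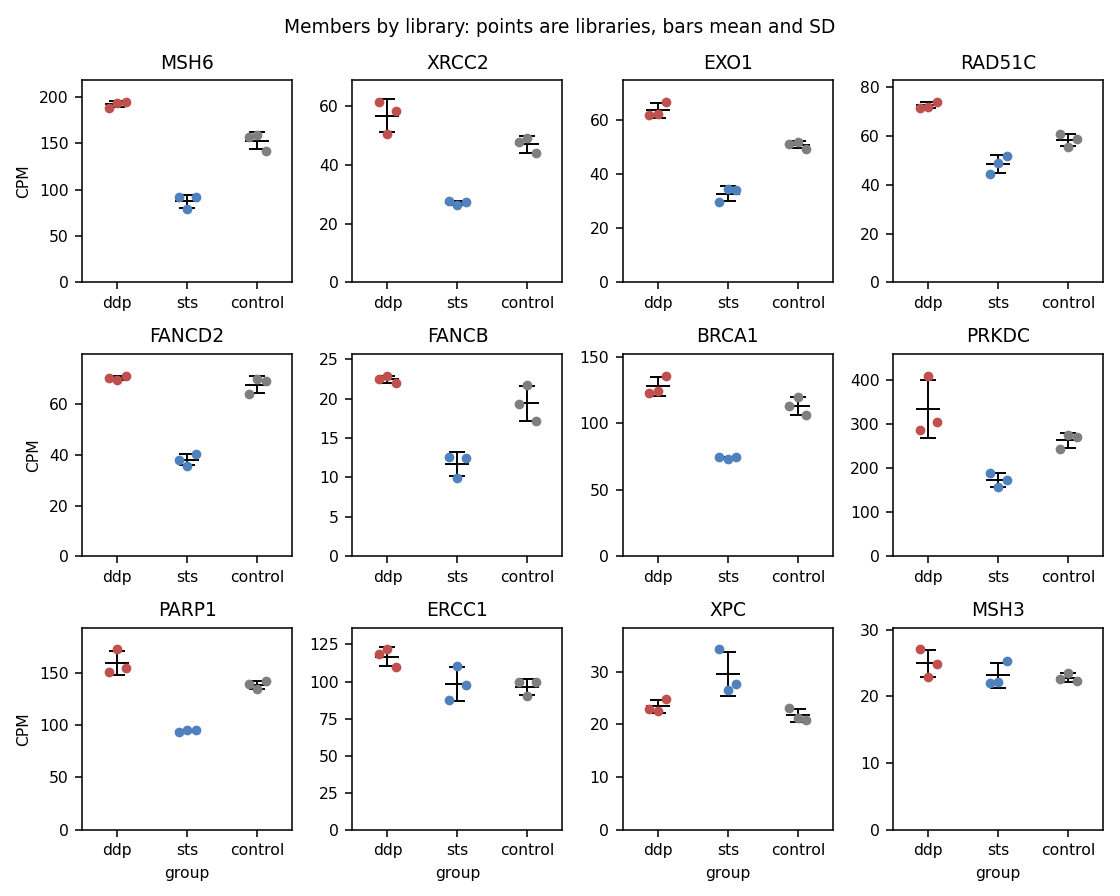
CPM of 12 members in each library, with ddp left, sts in the middle and control right, points for libraries and bars for the mean and SD over 3 libraries. In MSH6, XRCC2, EXO1 and RAD51C all 3 ddp libraries lie above and all 3 sts libraries below control, MSH3 overlaps in all groups, and XPC is highest in sts.

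Among other genes of the same pathways, falls with sts also outnumbered rises. Of 111 further repair and signalling genes, 106 were tested. With sts against control 40 fell and 12 rose (median −0.20), where 16.8% of all genes fell and 15.9% rose. With ddp against control 9 of the 106 rose and 1 fell (median 0.06), a share of rises near the 7.16% over all genes. The members had 28 falls and 1 rise of 45 with sts. The recombination partners had 10 falls and 2 rises of 19 tested, the Fanconi partners 4 and 1 of 12, the mismatch genes 2 falls of 2, the base excision genes 7 and 2 of 16, the nucleotide excision genes 3 falls of 15 (a share near that of all genes), the end joining genes 1 fall and 3 rises of 9, the translesion genes 4 and 2 of 9, and the signalling genes 9 and 2 of 24. POLQ, the polymerase of microhomology end joining, averaged 34.2 ± 3.43 CPM in sts and 69.0 ± 6.82 CPM in control, a log2 fold change of −1.01 ± 0.09 (adjusted p = 2.78e-10). CDC25A, the phosphatase that CHEK1 restrains, fell by 1.17 ± 0.15 with sts (adjusted p = 1.06e-07). RMI2, LIG3, HLTF, PMS1 and MNAT1 fell with sts by 0.65, 0.63, 0.62, 0.44 and 0.36. FAAP20, a partner of the Fanconi core complex, averaged 33.8 ± 5.78 CPM in sts and 22.9 ± 2.93 CPM in control and rose (0.56 ± 0.11, adjusted p = 0.000247).

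Members known to peak in S phase had a lower median with sts than the remaining members, and DNA replication genes fell as well. Of 12 members that are commonly expressed in S phase (FANCA, FANCD2, FANCI, BRCA1, BRCA2, BRIP1, RAD51AP1, RAD54L, BLM, EXO1, MSH6 and CHEK1), 10 fell with sts, with a median of −0.56. Of the other 33 tested members 18 fell and 1 rose, with a median of −0.24. Of 29 replication genes that are no members, 25 fell with sts (median −0.66), and 10 rose and 0 fell with ddp (median 0.20). In that last comparison, 17 replication genes had an unadjusted p under 0.05, beside 4651 of the 16947 genes tested. Of 27 mitosis genes, 23 fell with sts (median −0.52), and with ddp 7 fell and 1 rose (median −0.12). Over all genes tested, 16.8% fell and 15.9% rose with sts, and 8.32% fell and 7.16% rose with ddp. The part of the share of cycling cells in the members' values was not tested.

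Single genes outside the members did not all follow. MKI67, a proliferation marker, averaged 165 ± 11.1 CPM in sts and 249.7 ± 14.8 CPM in control and fell by 0.60 (adjusted p = 2.56e-07), while its value with ddp was 0.002. PCNA, the sliding clamp, averaged 615 ± 31.1 CPM in sts and 554 ± 17.7 CPM in control and did not pass the test (0.15 ± 0.07, adjusted p = 0.089). Of 19 tested p53 targets outside the members, 9 rose (47.4%) and 2 fell (10.5%) with sts (median 0.14). Over all genes, 15.9% rose and 16.8% fell. CDKN1A, the p21 inhibitor of cyclin-dependent kinases, averaged 88.9 ± 5.02 CPM in sts and 65.4 ± 2.25 CPM in control and rose by 0.44 ± 0.09 (adjusted p = 0.000107). MDM2, the ligase for p53, rose with sts by 0.37 ± 0.08 (adjusted p = 0.000247). With ddp, CDKN1A fell by 0.27 ± 0.09 (adjusted p = 0.0305). Of the 19 targets, 2 rose (10.5%) and 3 fell (15.8%) with ddp (median −0.07), where 7.16% of all genes rose and 8.32% fell. Among the 3 members that are p53 targets, XPC rose with sts, DDB2 fell and POLH did not pass the test.

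**Figure D5:**
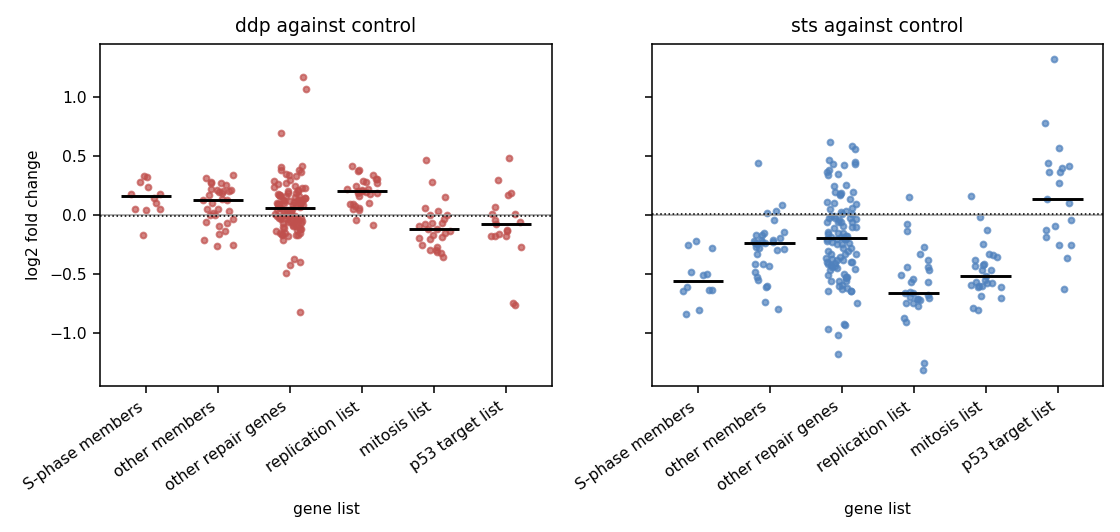
Log2 fold change of each gene in 6 lists with ddp against control (left) and sts against control (right), each point a gene, the bar the list median and the dotted line the median of all genes tested. With sts, the S-phase members (median −0.56), replication genes (−0.66) and mitosis genes (−0.52) lie lowest, the other members (−0.24) lie between these and 0, and the p53 targets (0.14) lie above 0.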

How the data were processed

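Per the labels' protocols, TRIzol RNA was converted into 9 libraries by a NEBNext Ultra kit, with no strand setting stated. HISAT2 2.0.5, featureCounts 1.5.0-p3 (Subread), StringTie 1.3.3b, limma and the build hg38 are named in the submitters' processing notes, with no roles. The authors deposited raw read counts (whole numbers) and FPKM values, both for 62257 gene rows. Of these 61552 carried an Ensembl ID and 705 were transcripts without an ID (0.313% to 0.357% of counts).

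Groups came from the sample titles. Counts were tested with edgeR 4.0.16 (R 4.3.3), quasi-likelihood with robust settings, TMM scaling, the default filter on low counts, all 9 libraries in 1 fit without covariates, and Benjamini-Hochberg adjustment over 16947 genes. The biological coefficient of variation was 0.0992. CPM use TMM-scaled library sizes, except the summed marker CPM, which use plain totals. Means are ± SD over 3 libraries and fold changes ± SE, with 95% intervals from the normal distribution. FPKM served only to compare levels between genes and in limma alternatives. The test was checked on simulated counts. The members and gene lists were chosen with earlier results of these data known. The rule gave full values to called members with non-overlapping libraries (up to 8 lower and 4 higher per comparison), all mismatch genes, the highest gene of each branch by FPKM, and fixed non-members; ATM and some other values were added after they were seen. Alternatives were scaling by upper quartiles or median of ratios, no filter or a minimum of 1 CPM in 3 libraries, limma-voom, DESeq2 1.42.0, limma 3.58.1 on log2(FPKM + 1) and log2(FPKM + 0.1), a replicate block, a fold minimum of 1.2, the 6 compared libraries alone, and each library left out. Exon overlaps come from GENCODE v29 and promoters from RefSeq.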

Additional observations from a re-analysis of the deposited data

How the results depend on the processing

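With ddp against control, 8 members were called in the main fit. Limma called 5 members on log2(FPKM + 1) and 5 on log2(FPKM + 0.1). On log2(FPKM + 1) without the filter it called 0, with 14 members at an unadjusted p under 0.05. A fold minimum of 1.2 in edgeR left 0 calls (0 at an unadjusted p under 0.05). DESeq2 called 10 members, of which 7 were among the 8. It lost ATM and added DDB1, PRKDC and PARP1. Leaving out single libraries gave 4 to 9 called members, of which 3 to 8 were among the 8. Over all genes, these 3 FPKM fits and the fold minimum called 1617, 1638, 787 and 942 genes, beside 2623. With sts against control, 29 members became 19 on unfiltered FPKM and 16 with the fold minimum (3312 and 2754 genes, beside 5552). With sts against ddp, 35 became 23 and 21 (4352 and 3701 genes, beside 6721). The labels do not state whether replicate numbers pair the libraries. Deviations of same-numbered libraries correlated between −0.0847 and 0.0547, and those of differently numbered libraries between −0.0474 and 0.0564. With 3 libraries a group, these values cannot settle whether libraries were paired. A replicate block gave 5 members with ddp, 27 with sts and 35 between them. The remaining scalings, filters and tools kept these counts within 1.5 times. Single ddp calls were lost in further settings beside the unfiltered FPKM fit and the fold minimum: FANCG (adjusted p = 0.0857), XRCC2 (0.0541) and XRCC6 (0.0754) without the filter on counts, FANCG (0.06), XRCC6 (0.0578) and ATM (0.0524) with the block, and XRCC2 (0.0588 and 0.0591) and ERCC1 (0.0691 and 0.0673) in the filtered FPKM fits.

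Left-out libraries also added calls. With ddp against control PARP1 was called without sts replicate 2 (adjusted p = 0.0453) or 3 (0.0492). With sts against control, FANCG was called without control replicate 2 (0.0286), ERCC4 (0.0178) and ATM (0.0394) without control replicate 1, BRIP1 without control replicate 1 (0.0477) or ddp replicate 2 (0.0437), and RAD54L (0.0485) and POLH (0.041) without sts replicate 1. PALB2 was called between sts and ddp without sts replicate 2 (0.0457) or control replicate 2 (0.0472).

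Changes of sign were found in uncalled values near 0. XRCC5 with ddp was −0.00106 under upper-quartile scaling and −0.000746 under the 1 CPM filter, and XRCC1 between sts and ddp was 0.0183 under upper-quartile scaling. Across left-out libraries, log2 fold changes with ddp ran from −0.181 to 0.0166 (FANCF), −0.0618 to 0.183 (BRCA2), −0.0344 to 0.0572 (PALB2), −0.0299 to 0.116 (RAD51AP1), −0.0161 to 0.0544 (PMS2), −0.153 to 0.023 (ERCC4), −0.0192 to 0.0407 (XRCC5), −0.1204 to 0.0299 (XRCC1), −0.0179 to 0.106 (ATR) and −0.0212 to 0.117 (TP53BP1). With sts they ran from −0.0489 to 0.0513 (MSH3), −0.0576 to 0.0999 (ERCC1), −0.0828 to 0.1796 (XPA) and −0.149 to 0.00884 (XRCC1). Between sts and ddp they ran from −0.0902 to 0.0387 (XRCC1), −0.076 to 0.0867 (POLH) and −0.0527 to 0.11 (REV3L). The cause of these shifts was not tested.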
